A study of Caenorhabditis elegans with 6 samples.

Results

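The genes described here encode components of P granules and Z granules, condensates at the nuclear periphery of *Caenorhabditis elegans* germ cells. They were chosen by name: the helicase gene *znfx-1*, the Vasa-like helicase genes *glh-1*, *glh-2*, *glh-3* and *glh-4*, the scaffold genes *pgl-1* and *pgl-3*, *deps-1*, and the disordered protein genes *meg-3* and *meg-4*. All 10 symbols matched a gene of the WBcel235 annotation, out of 22336 loci in the files. The data are counts of 22G-RNAs antisense to each locus in gravid adult whole animals, collected 63 hours after plating. The groups were wild-type N2, with 3 libraries, and *lotr-1* mutants, with 1 library from each of the genotypes *lotr-1(xf58) I*, *lotr-1(xf60) I* and *lotr-1(xf61) I*. The labels name no treatment of the animals. Each mutant strain carries 1 edited allele made in N2: *xf58* lacks most of the LOTUS region but keeps the reading frame, and *xf60* and *xf61* are other partial deletions. LOTR-1 itself is a Z granule protein with LOTUS and Tudor domains, and the study treats the 3 alleles as triplicates. The question asked of these genes is therefore whether 22G-RNAs against the partners and neighbors of LOTR-1 differ in its mutants.

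In the nematode germline, RNA-dependent RNA polymerases copy short antisense RNAs from target transcripts. These 22G-RNAs are loaded onto Argonautes, some of which silence their targets while CSR-1 is associated with expressed germline genes. The machinery is arranged in adjoining granules: P granules capture transcripts leaving the nucleus, Z granules hold ZNFX-1 and are needed for the inheritance of RNA interference, and mutator foci amplify 22G-RNAs. The genes of these granules are themselves transcribed in the germline and can be 22G-RNA targets, and that is what was counted. A 22G-RNA count is a measure of small RNAs against a transcript, not of the transcript or its protein.

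Total 22G-RNA counts ranged from 3706296 to 4520488 per library. The mutated gene *lotr-1* had 245, 293 and 275 counts in wild-type and 88 in *xf58*, 20 in *xf60* and 47 in *xf61*, but the deletions also remove sequence on which reads could be counted. The libraries were scaled with TMM factors, which assume that most loci do not change and lay between 1.35 and 1.39 in wild-type and between 0.657 and 0.843 in the mutants. The median log2 fold change of the 9285 loci that passed the filter on low counts was 0.01 with these factors and −0.88 with total counts, so each fold change below is relative to that median. Fitted within each group, the common dispersion was 0.0018 for wild-type against 0.125 for the 3 mutant libraries. Nothing in the labels says whether the 3 wild-type libraries came from separate cultures, so the p-values measure the spread between these libraries, which may be technical in wild-type. In the mutants the spread includes any difference between the 3 alleles, and the fit pools both groups in 1 dispersion per locus. In whole animals, fewer germ cells and fewer 22G-RNAs per cell cannot be told apart.

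All 10 genes carried 22G-RNAs in every library and passed the filter. With TMM scaling, the fitted rises of *meg-3* and *meg-4* were above 2-fold, though their 95% intervals reach below it. *glh-1* and *znfx-1* were lower by less than 2-fold with an adjusted p under 0.1, and the other 6 did not pass the test. Without the *xf58* library *pgl-1* and *deps-1* passed it as well, with log2 fold changes of 0.46 and 0.33, and without *xf60* so did *glh-2*, at −0.38. The share of all tested loci that passed in these fits was not counted. With the 2-fold cutoff, 1922 loci were called up and 2163 down of 9647 without *xf58*. Without *xf60* they were 1731 and 1480 of 9659, against 1746 and 1634 of 9285 with all libraries. Together the 10 genes held 13.4, 13.4 and 13.5 of every 10000 counts in wild-type. They held 7.15 in *xf58* (95% Wilson interval 6.88 to 7.42), 6.95 in *xf60* (6.70 to 7.21) and 7.64 in *xf61* (7.39 to 7.91), where the intervals cover counting error only. After TMM scaling the wild-type sum was 4247 ± 26.6 normalized counts (SD, n = 3) and the mutant sum 4301 ± 555 (SD, n = 3), and the groups overlapped. The share of raw counts and the scaled sum are the same data read with 2 scalings.

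**Figure D1:**
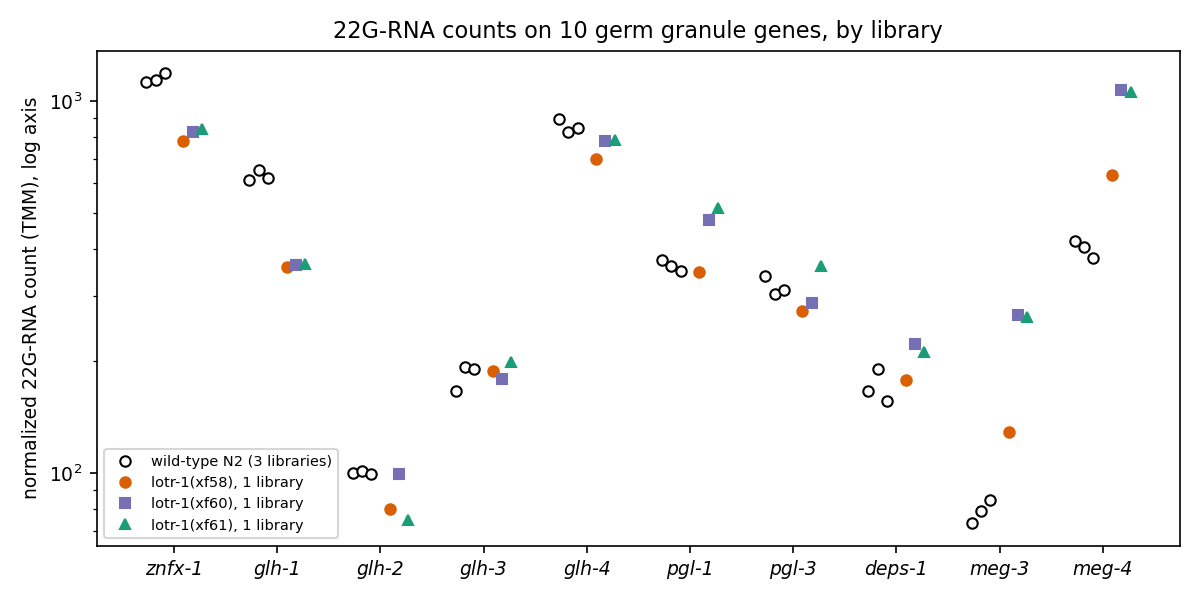
TMM-normalized 22G-RNA counts (log axis) on the 10 germ granule genes. Open circles are the 3 wild-type libraries, and filled symbols are the *xf58*, *xf60* and *xf61* libraries; at *znfx-1* and *glh-1* all mutant libraries lie below wild-type, and at *meg-3* and *meg-4* all lie above.

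ZNFX-1 is the zinc finger helicase that defines Z granules and acts in the inheritance of RNA interference. The gene *znfx-1* (WBGene00014208), lies on chromosome II from 9213658 to 9223153 and has 7795 exonic bases, the longest of the 10. It had 1125.5, 1136 and 1186 normalized counts in the wild-type libraries. In the mutants it had 781 in *xf58*, 825 in *xf60* and 838 in *xf61*. Every mutant library was below every wild-type library. The log2 fold change was −0.50 (standard error 0.13, 95% interval −0.79 to −0.20, adjusted p = 0.0155 with the quasi-likelihood test of edgeR), a level 1.41-fold higher in wild-type than in the mutants. This is within the 2-fold cutoff. The alleles were nearly alike, with log2 differences from the wild-type mean of −0.56, −0.48 and −0.45.

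The GLH proteins are DEAD-box helicases related to Vasa. GLH-1, GLH-2 and GLH-4 carry repeats of phenylalanine and glycine, which GLH-3 lacks, and GLH-1 is a constitutive P granule component. The 4 genes lie on chromosome I but not side by side. *glh-1* (WBGene00001598, from 6854478 to 6857536) had 615, 654 and 622 normalized counts in wild-type, and 358 in *xf58*, 362 in *xf60* and 365 in *xf61*. These groups did not overlap, and the mutant libraries differed from each other by less than the wild-type libraries did. The log2 fold change was −0.80 (standard error 0.13, 95% interval −1.10 to −0.50, adjusted p = 0.00197, edgeR), or 1.74-fold higher in wild-type, again within the 2-fold cutoff.

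The other *glh* genes did not pass the test. *glh-4* (WBGene00001601, from 3727027 to 3731179) had 896, 824 and 843 normalized counts in wild-type, against 697 in *xf58*, 779 in *xf60* and 786 in *xf61*. Every mutant library was lower, but the log2 fold change was only −0.18 (95% interval −0.50 to 0.14). *glh-2* (WBGene00001599, from 6513928 to 6517507) had 100.2, 101 and 99.6 normalized counts in wild-type, and 80.2, 99.3 and 75.1 in the mutants. Its *xf60* library was at the lower edge of wild-type, and the log2 fold change was −0.24 (95% interval −0.61 to 0.12). Its raw counts in the mutants were low, and counting error alone spans 39.7 to 69.3 for the 53 counts in *xf61*. *glh-3* (WBGene00001600, from 5792321 to 5795114) had 166, 192 and 190.2 normalized counts in wild-type and 188, 179 and 198 in the mutants. The groups of *glh-3* overlapped, with a log2 fold change of 0.05 (95% interval −0.27 to 0.36).

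The difference between *glh-1* and *glh-4* does not depend on the scaling, because it can be read as a ratio within each library. The ratio of *glh-1* to *glh-4* counts was 0.686, 0.793 and 0.737 in wild-type, against 0.514 in *xf58* and 0.465 in both *xf60* and *xf61*. The wild-type ratio of *glh-1* to *znfx-1* counts was 0.549 ± 0.0258 (SD, n = 3) and the mutant ratio 0.444 ± 0.0123 (SD, n = 3). Thus 22G-RNAs on *glh-1* were lower in the mutants relative to both genes in every library. These pairs were picked after the values were seen, and the ratios were not tested. Reads that match several places equally well were put at 1 random place by the authors, so close paralogs can exchange counts. With *glh-1* and *glh-2* summed to 1 locus, the log2 fold change was −0.71 (standard error 0.13).

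PGL-1 and PGL-3 are self-assembling scaffold proteins of P granules with RGG repeats that bind RNA. *pgl-1* (WBGene00003992, chromosome IV from 6974441 to 6977318) had 375, 359 and 349.9 normalized counts in wild-type, 347 in *xf58*, 478 in *xf60* and 517 in *xf61*. Its *xf58* library was just under the wild-type range, while *xf60* and *xf61* were above it. The log2 fold change over the 3 alleles was 0.31 (95% interval −0.11 to 0.73). *pgl-3* (WBGene00003994, chromosome V from 4755979 to 4758587) had 338, 303 and 310.4 normalized counts in wild-type, 272 in *xf58*, 287 in *xf60* and 359.7 in *xf61*. Its mutant libraries lay on both sides of wild-type, with a log2 fold change of −0.05 (95% interval −0.42 to 0.32). The wild-type ratio of *pgl-1* to *pgl-3* counts was 1.14 ± 0.0399 (SD, n = 3) and the mutant ratio 1.46 ± 0.196 (SD, n = 3), higher in each mutant library than in any wild-type library. The lowest mutant ratio, 1.27 in *xf58*, came from 251 and 197 raw counts, and the highest wild-type ratio was 1.19. This ratio was not tested, and counting error was not taken into it. Summed to 1 locus, *pgl-1* and *pgl-3* had a log2 fold change of 0.15 (standard error 0.17).

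DEPS-1 is a P granule protein needed for normal assembly of the PGL proteins and for accumulation of the *glh-1* transcript. *deps-1* (WBGene00022034, chromosome I from 506473 to 509056) had 167, 190.3 and 156 normalized counts in wild-type, against 178 in *xf58*, 223 in *xf60* and 211 in *xf61*. Its *xf58* library was within the wild-type range, and the other 2 were above it. The log2 fold change was 0.25 (95% interval −0.11 to 0.61) and did not pass the test. Of the 10 genes only *deps-1* shares exonic sequence with another gene of the annotation, 109 bases with Y65B4BL.7 on the opposite strand, and 22G-RNAs were counted by strand.

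MEG-3 and MEG-4 are related, intrinsically disordered proteins that act redundantly to stabilize P granules in the embryo. Both genes are on the X chromosome, *meg-3* (WBGene00001569) from 1986469 to 1989607 and *meg-4* (WBGene00016485) from 1682954 to 1686419. *meg-3* had 73.4, 79.3 and 84.8 normalized counts in wild-type, and 129 in *xf58*, 266 in *xf60* and 263 in *xf61*. *meg-4* had 419.8, 404 and 379.6 normalized counts in wild-type, and 632 in *xf58*, 1069 in *xf60* and 1059 in *xf61*. At both genes all mutant libraries were above wild-type, and *xf58* was closest to it. *meg-3* rose 2.76-fold, or 1.47 ± 0.28 on the log2 scale (fit and standard error, 95% interval 0.80 to 2.13, adjusted p = 0.00466, edgeR). *meg-4* rose 2.29-fold, or 1.197 ± 0.23 on the log2 scale (95% interval 0.67 to 1.73, adjusted p = 0.00414, edgeR). Both intervals include a 2-fold change. In the edgeR test against a 2-fold change itself, the adjusted p was 0.0989 for *meg-3* and 0.275 for *meg-4*, and DESeq2 called neither in its own such test. With total counts the log2 fold changes were 0.53 and 0.27, neither past the 2-fold cutoff, while relative to the median locus of that fit they were 1.41 and 1.15.

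The rise was partly visible before any scaling. *meg-3* had 96, 113 and 103 raw counts in wild-type and 93 in *xf58*, where the exact Poisson interval is 75.1 to 114. In *xf60* it had 166 raw counts (142 to 193) and in *xf61* 186 (160.2 to 215), beyond every wild-type count without any scaling. For *meg-4*, *xf58* had 457 raw counts and wild-type 549, 576 and 461, so its place above wild-type in *xf58* came from the scaling. The ratio of *meg-4* to *znfx-1* counts, which needs no scaling, was 0.373, 0.356 and 0.320 in wild-type, 0.809 in *xf58*, 1.30 in *xf60* and 1.26 in *xf61*. For *meg-4* over *pgl-1* the wild-type ratio was 1.11 ± 0.0221 (SD, n = 3) and the mutant ratio 2.04 ± 0.209 (SD, n = 3). Both ratios were higher in every mutant library than in any wild-type library, but these pairs too were picked after the values were seen, and the ratios were not tested. The wild-type ratio of *meg-3* to *meg-4* was 0.198 ± 0.0243 (SD, n = 3) and the mutant ratio 0.234 ± 0.0261 (SD, n = 3), and the groups overlapped. With both genes summed to 1 locus, the log2 fold change was 1.25 (standard error 0.23).

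**Figure D2:**
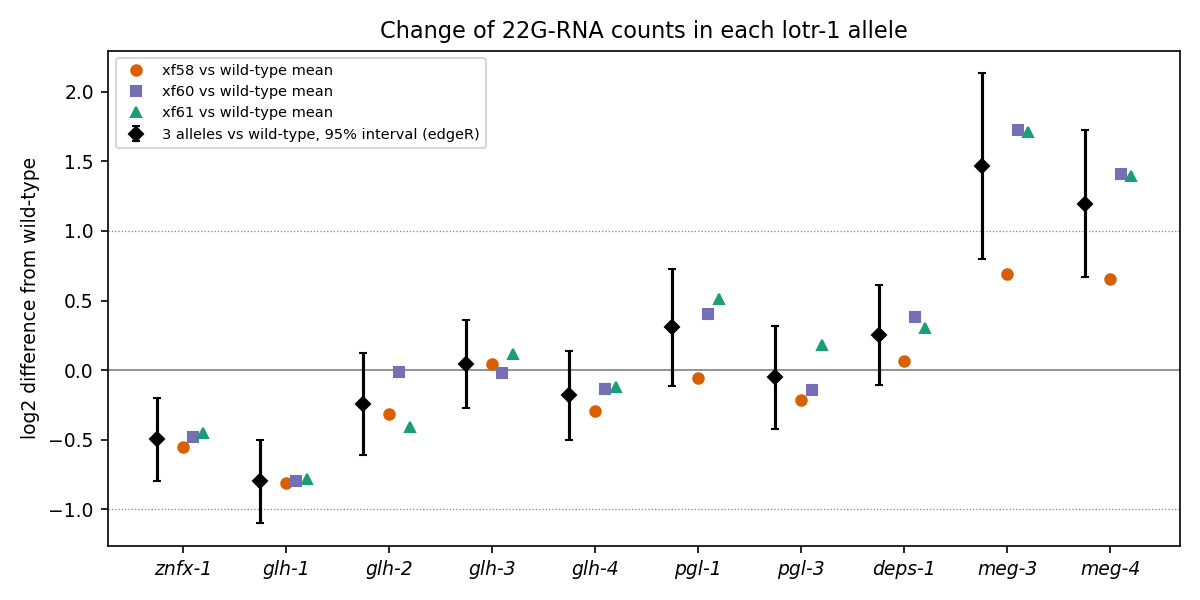
Log2 difference from wild-type of the TMM-normalized 22G-RNA count on each gene. Diamonds are the edgeR fit of the 3 alleles against 3 wild-type libraries with its 95% interval, and colored symbols are single allele libraries against the wild-type mean; dotted lines mark a 2-fold change, which only *meg-3* and *meg-4* pass, in the fit and in the *xf60* and *xf61* libraries.

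A locus was called where it passed both an adjusted p of 0.1 and a 2-fold change. By this rule 2 of the 10 genes were called up and 0 down. Of all tested loci 18.8% were called up and 17.6% down. Without the cutoff on the fold, 4 of the 10 had an adjusted p under 0.1, 2 lower and 2 higher, against 58.9% of all tested loci (29.5% lower and 29.3% higher). The same 4 had an unadjusted p under 0.05, as did 57.1% of all tested loci. DESeq2 with its Wald test also called 2 of the 10 up and 0 down, beside 2091 up and 1850 down of all 22336 loci. That total includes loci without any count (18346 had some), so its shares cannot be set beside those of edgeR. The groups did not overlap at 6 of the 10 genes, 4 lower and 2 higher in the mutants, against 61.8% of all tested loci (32.2% lower and 29.7% higher). The 10 genes had a median log2 fold change of −0.0025, beside 0.01 for all loci tested.

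For single alleles there is 1 library each, so their values are descriptions. In *xf58*, none of the 10 genes was past 2-fold in either direction, whereas 13.2% of tested loci were past 2-fold lower and 17.3% higher. In *xf60*, *meg-3* and *meg-4* were past 2-fold higher, with log2 differences of 1.73 and 1.41, as were 19.0% of tested loci. In *xf61* the same 2 genes were past 2-fold higher, at 1.71 and 1.40, as were 19.4% of tested loci. No gene of the 10 was past 2-fold lower in *xf60* or *xf61*, where 22.6% and 22.2% of tested loci were. Of all tested loci 9.09% were past 2-fold lower in all 3 alleles, and of the 10 genes none was. In *xf58* the log2 differences were 0.69 for *meg-3* and 0.65 for *meg-4*, the smallest of the 3 alleles at both genes. The edgeR fit of a single allele library borrows the spread of wild-type, on the assumption that the lone library varies like wild-type. Its log2 changes in *xf58*, *xf60* and *xf61* were 0.70, 1.75 and 1.73 for *meg-3*, and 0.65, 1.41 and 1.40 for *meg-4*. Calls from that fit rest on the assumption and are not counted here.

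The genes differed in how far apart the alleles lay. The log2 differences of the 3 alleles spanned 0.03 at *glh-1*, 0.10 at *znfx-1*, 0.14 at *glh-3* and 0.17 at *glh-4*. They spanned 0.32 at *deps-1*, 0.40 at *glh-2*, 0.40 at *pgl-3* and 0.57 at *pgl-1*. The widest spans were 0.76 at *meg-4* and 1.04 at *meg-3*. The median span over the 3871 tested loci that averaged 100 counts or more was 0.54, and *glh-1* and *znfx-1* were at percentiles 0.284 and 3.31. Both spans lie within counting error, so they do not show that the alleles are more alike there than elsewhere. In *xf58* counting error alone spans 316 to 405 normalized counts at *glh-1* and 718 to 848 at *znfx-1*. Of the 845 such loci that were called up, *xf58* had the smallest change at 64.3%, as it had at *meg-3* and *meg-4*.

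Levels of different genes were compared per length of merged exons. In wild-type, *glh-4* and *glh-1* were highest, with 228 ± 9.94 and 228 ± 7.50 normalized counts per kb of exon (SD, n = 3), and did not differ beyond their spread. Next came *meg-4* with 148 ± 7.48, *znfx-1* with 147 ± 4.18, *pgl-1* with 145 ± 5.01 and *pgl-3* with 139 ± 8.01, none of which differed from its neighbor in this order beyond the spread. *deps-1* had 83.7 ± 8.49 and *glh-3* 73.2 ± 5.88, which overlapped. *glh-2* had 31.2 ± 0.233 and *meg-3* 28.5 ± 2.05. In the mutants *meg-4* had the highest mean level, 339 ± 92.0 normalized counts per kb of exon (SD, n = 3), followed by *glh-4* with 201 ± 13.2 and *pgl-1* with 179 ± 35.7. *glh-1*, level with *glh-4* in wild-type, had 131 ± 1.31 in the mutants.

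**Figure D3:**
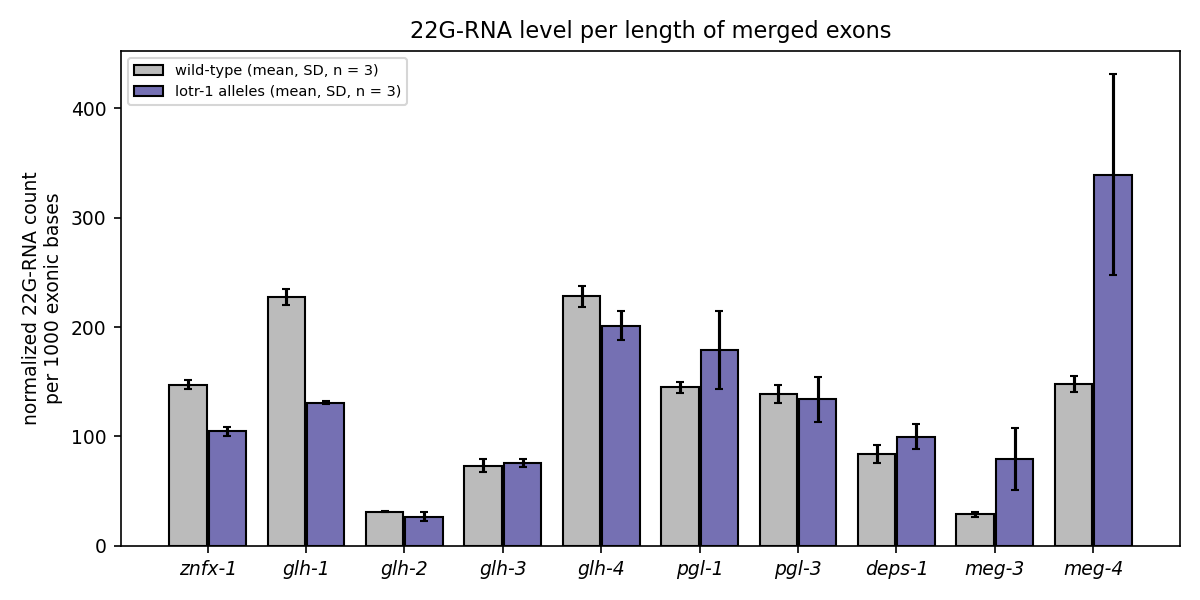
TMM-normalized 22G-RNA counts per kb of merged exons on each gene. Bars are the mean of 3 libraries and error bars the SD; *glh-1* and *glh-4* are highest in wild-type, and *meg-4* has the highest mean in the *lotr-1* alleles, where its SD is also widest.

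The scaling sets the level of all 10 fold changes together. With total counts, 8 of the 10 genes were lower at an adjusted p under 0.1, against 65.4% of all tested loci, with log2 fold changes of −1.69 at *glh-1*, −1.39 at *znfx-1*, −1.15 at *glh-2* and −1.08 at *glh-4*. These 4 were then called down, as were 44.6% of all tested loci. None of the 10 was called up, against 8.68% of all tested loci. Relative to the median locus of that fit, *glh-1* was at −0.81 and *znfx-1* at −0.51, near their values with TMM factors. The order of the genes, with *glh-1* lowest and *meg-3* highest, was the same with both scalings.

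**Figure D4:**
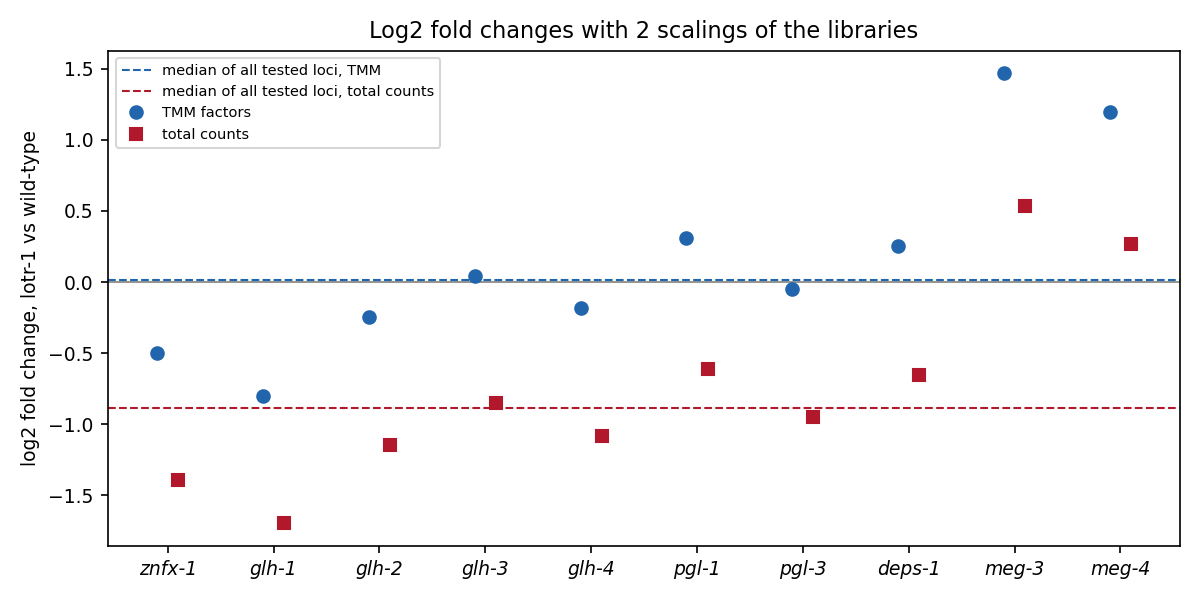
Log2 fold change (*lotr-1* alleles against wild-type) of each gene with TMM factors (circles) and with total counts (squares). Dashed lines are the medians of all tested loci with each scaling, 0.01 and −0.88; the points of a gene shift with the line, and their order is kept.

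Since both *meg* genes are X-linked, their chromosome was described as well. Of 762 tested protein-coding genes on the X, 27.3% were called up and 16.4% down, with a median log2 fold change of 0.33. Of 7788 on chromosomes I to V, 16.5% were called up and 18.2% down, with a median of −0.05. By allele, the X-linked median was 0.03 (*xf58*), 0.31 (*xf60*) and 0.47 (*xf61*), and *meg-3* and *meg-4* lay above it each time. Within 50000 bp, *meg-3* had 7 tested protein-coding neighbors with a median log2 fold change of −0.17, and *meg-4* had 9 with a median of 0.29. Of the neighbors of *meg-3* 1 was called up and 2 down, and of those of *meg-4* 3 were called up and 0 down, beside 27.3% and 16.4% on the whole X. On the autosomes, the 10 neighbors of *glh-1* had a median of −0.26 and the 11 of *znfx-1* a median of −0.94. Whether the chromosome has a part in the rise of *meg-3* and *meg-4* was not tested.

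**Figure D5:**
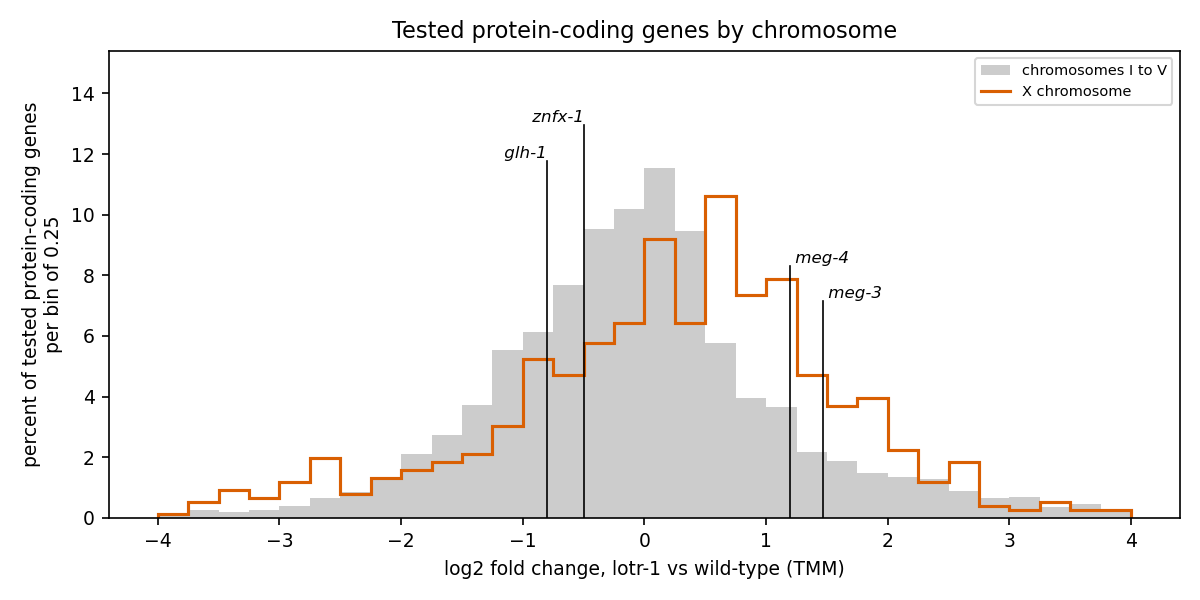
Distribution of log2 fold changes between −4 and 4 over tested protein-coding genes, in bins of 0.25 as percent of the genes on chromosomes I to V (grey, 7788 genes) and on the X (orange line, 762 genes). The X-linked distribution lies further right, with medians of −0.05 and 0.33; vertical lines mark *glh-1*, *znfx-1*, *meg-4* and *meg-3*.

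Other genes of these granules were taken from fixed lists. Of 22 further P granule genes and neighbors, all of them tested, 2 were called up and 0 down, beside 18.8% and 17.6% of all tested loci. Their median log2 fold change was 0.40. Without the fold cutoff 10 were higher and 3 lower, beside 29.3% and 29.5% of all tested loci. An unadjusted p under 0.05 was found for 12 of the 22, a share near the 57.1% of all loci, and DESeq2 called 1 up and 1 down. The genes called by edgeR were *meg-2* and *nos-2*, and only 1 of them was called without wild-type replicate 2 or without *xf60*. *meg-2*, a relative of *meg-1* that acts in the embryonic germ lineage, had 18, 25 and 20 raw counts in wild-type, against 34 in *xf58*, 30 in *xf60* and 40 in *xf61*, with a fitted log2 change of 1.66 (standard error 0.20, adjusted p = 5.05e-04, edgeR). *nos-2*, a Nanos homolog whose transcript is held in embryonic P granules, had a fitted log2 change of 1.07 (standard error 0.27, adjusted p = 0.0152, edgeR) on 25 to 42 raw counts per library. With total counts the log2 fold changes of *meg-2* and *nos-2* were 0.76 and 0.16, and neither was called.

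Among the genes without a call, *meg-1* was picked out after its values were seen, as the remaining *meg* gene measured. It had 21, 28 and 17 raw counts in wild-type and 17, 16 and 28 in the mutants, and a fitted log2 change of 0.83 (standard error 0.28, adjusted p = 0.0418, edgeR). All 4 *meg* genes lie on the X and had positive log2 fold changes with TMM factors, and *meg-1* turned to −0.07 with total counts. The scaffold paralog *pgl-2* was picked out likewise: it had 256, 252 and 216 raw counts in wild-type, 118 in *xf58*, 18 in *xf60* and 16 in *xf61*. Its mutant libraries were all below wild-type with a wide gap between *xf58* and the others, and the log2 fold change of −1.34 (standard error 0.65) did not pass the test. Without the *xf58* library 1 gene of this list was called down.

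Of 4 Z granule genes besides *znfx-1* and *lotr-1*, *pid-4* was called up and none down by edgeR, beside 18.8% and 17.6% of all tested loci. An unadjusted p under 0.05 was found for 1 of the 4, against 57.1% of all tested loci. The median of the list was 0.29 on the log2 scale. *pid-4*, which encodes a protein of the piRNA pathway, had 301, 336 and 312 raw counts in wild-type, against 300 in *xf58*, 332 in *xf60* and 356 in *xf61*. Its fitted log2 change was 1.00 (standard error 0.15, adjusted p = 0.00158, edgeR), at the edge of the 2-fold cutoff, and 0.09 with total counts. The raw counts of *pid-4* were level, so its call rests on the scaling. The call was lost with DESeq2 and when wild-type replicate 1, wild-type replicate 2, *xf60* or *xf61* was left out. None of 5 granule Argonaute genes (*csr-1*, *prg-1*, *wago-4*, *wago-3* and *wago-1*) was called by edgeR or by DESeq2. Their log2 fold changes lay between 0.34 and 0.44, and 3 of the 5 had an unadjusted p under 0.05, against 57.1% of all loci in either direction. Without the fold cutoff 3 were higher and 0 lower at an adjusted p under 0.1, beside 29.3% and 29.5% of all tested loci. The gene *wago-4* is in this list and in the Z granule list.

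Of 13 genes of the mutator and SIMR foci, 4 were called down and 0 up, beside 17.6% and 18.8% of all tested loci, and DESeq2 also called 4 down and 0 up. With total counts 6 of the 13 were called down and 0 up, near the 44.6% down and 8.68% up of all tested loci. The median log2 fold change of the 13 was −0.04, near that of all loci, and 5 of them had positive values. The genes called were *smut-1*, a helicase gene, *rde-8*, an endonuclease gene, *mut-2*, which encodes the enzyme that adds poly(UG) tails to targets of silencing, and *nyn-2*, which encodes a NYN domain protein. *smut-1* had 270, 266 and 271 raw counts in wild-type, 56 in *xf58*, 15 in *xf60* and 17 in *xf61*, with a fitted log2 change of −2.28 (standard error 0.42, adjusted p = 0.00381, edgeR). *rde-8* had 126, 95 and 119 raw counts in wild-type and 24, 9 and 11 in the mutants, and a log2 fold change of −2.02. *mut-2* and *nyn-2* had log2 fold changes of −1.50 and −1.12. *smut-1* is a paralog of *mut-14* and may exchange reads with it. All of these decreases were larger than that of *glh-1*, which the 2-fold rule for a call fixes in advance. This list had 3 genes called down without *xf58* and 4 when any other single library was left out.

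Lists of genes for other parts of the gravid adult gave the background on tissue. Of 9 sperm genes, 4 passed the filter, 2 were called up (*spe-9* and *spe-41*) and 2 down (*spe-44* and *fer-1*). Among all tested loci the shares were 18.8% up and 17.6% down, to be set beside each of these lists. The summed normalized counts of the sperm list were 258 to 296 in wild-type and 647 to 1149 in the mutants, most of them on *spe-41*. Of 6 oocyte genes, *puf-7* was called up and 0 were called down, and the list summed to 864 to 899 normalized counts in wild-type and 990.1 to 1304 in the mutants. Of 6 vitellogenin genes of the intestine, only *vit-6* passed the filter, and it was called up with 8 to 36 raw counts per library. No gene of the oocyte or intestine list was at 0 in any library, while *spe-38*, *spe-42*, *gsp-3* and *gsp-4* of the sperm list were at 0 in at least 1. These are 22G-RNA counts and do not measure how much of each tissue was present, and their part in the results above was not tested.

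Loci with the most similar pattern were sought for the called genes and for *znfx-1*, as the smallest Euclidean distance of the 3 allele differences among the 3862 other loci that averaged 100 counts or more. For *znfx-1* these were *prp-39*, *mca-3* and *nst-1*, at distances of 0.044 to 0.065 on the log2 scale. For *meg-4* they were Y44A6D.5, the transposon family HelitronY4_CE and *dapk-1*, at 0.082 to 0.096. For *meg-3* they were the transposon families PAL3A_CE and LINE2C_CE and the locus WBGene00044768, at 0.160 to 0.203. None of these loci lies on the X chromosome, as far as the files place them.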

How the data were processed

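Per the labels and the methods of the study, the authors trimmed reads with cutadapt 2.4 and aligned them to WBcel235 with Bowtie 1.2.2. Reads with several equally good places were put at 1 of them at random. 22G-RNA reads, 22 bases long, starting with G and antisense to transposons or to exons, were counted with featureCounts 1.6.2. The deposited counts are whole numbers per gene or transposon family without normalization.

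Symbols and positions came from Ensembl release 115 of the same build, whereas the authors used release 96. The genes and lists were chosen with earlier results of these data known. Groups came from the genotype labels. All loci were fitted with edgeR 4.0.16 in R 4.3.3 (TMM factors, filterByExpr, quasi-likelihood test, Benjamini-Hochberg adjustment over the 9285 loci tested). Calls needed an adjusted p below 0.1 together with a fold change above 2, the cutoffs of the study. Normalized counts are counts over effective library size times the mean size. Single alleles were set against the wild-type mean on log2 values with a prior count of 2. Alternatives used DESeq2 1.42.0, other scalings, filters and thresholds, summed paralogs, the replicate number as a block, and left-out libraries. The fit was run on simulated data with a small set of strongly changed loci and the same dispersion in both groups. The data differ in both respects, so that run does not bear on the TMM scaling or the pooled dispersion. Intervals are 95% Wilson or exact Poisson intervals of counting error. The named genes were the 10 genes, *lotr-1*, the called genes of the other lists (at most 4 in each direction), and the 3 loci nearest in pattern to *znfx-1* and to each called gene. Words shared between paralogs were not counted, since no genome sequence was used here. Figures were drawn with matplotlib 3.10.9.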

Additional observations from a re-analysis of the deposited data

Results flagged for a closer look

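At *pgl-1* and *pgl-3*, single mutant libraries lay on opposite sides of the whole wild-type range. At *pgl-1* the log2 difference from the wild-type mean was −0.0572 in *xf58*, against 0.40 in *xf60* and 0.51 in *xf61*. At *pgl-3* it was −0.22 in *xf58* and −0.14 in *xf60*, against 0.18 in *xf61*. The difference between alleles was not tested, since each allele has 1 library, and the *xf58* value of *pgl-1* is close to the wild-type SD of 0.05 on the log2 scale.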

How the results depend on the processing

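What caused these changes was not tested. With total counts, 4 of the 10 genes were called down and 0 up, and of all tested loci 4145 were called down and 806 up, in place of 1634 and 1746. Of those calls, 16.3% were up in place of 51.7%. In the single alleles, total counts put 2 genes past 2-fold lower in *xf58*, 6 in *xf60* and 4 in *xf61*, and 0 higher in *xf60* and *xf61*. The shares of all tested loci were not counted for single alleles with this scaling. Over the 3 alleles, the median log2 fold change of all tested loci was −0.88 with total counts. In the further P granule genes 5 were then called down and 0 up, in the Z granule list 0 up, in the oocyte list 3 down, and in the intestine list 0 up. The mutator and SIMR list had 6 called down and 0 up. The shares over all tested loci were 44.6% down and 8.68% up. The log2 fold change turned to −0.85 for *glh-3*, −0.61 for *pgl-1* and −0.65 for *deps-1*. *glh-3* also changed sign with DESeq2's size factors (−0.0485), both DESeq2 tests (−0.0480) and no count filter (−0.10). With single libraries left out *glh-3* ranged from −0.0285 to 0.0727, below 0 without wild-type replicate 1, and *pgl-3* from −0.17 to 0.0280, above 0 without *xf58*. A value this close to 0 has no direction. DESeq2's Wald test called 1 further P granule gene up and 1 down, 0 Z granule genes up and 2 intestine genes up. It called 2091 up and 1850 down of all 22336 loci, a total that includes loci without counts. Against a 2-fold change itself, DESeq2 called 0 of the 10 up (795 up and 493 down of all loci), and edgeR called 1, *meg-3* (1155 and 850). Without a fold cutoff 2 of the 10, *znfx-1* and *glh-1*, were called down (2725 up and 2742 down of all loci). With paralog pairs summed, 1 locus, the *meg* pair, was called up.

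When each library was left out in turn, 2 of the 10 genes were called up and 0 down each time, 1 to 2 further P granule genes up and 0 to 1 down, 0 to 1 Z granule genes up and 1 to 2 intestine genes up. Calls over all loci were then 1677 to 1922 up and 1455 to 2163 down, of 9480 to 9659 tested. The log2 fold change of *glh-1* was then −0.83 to −0.79 and that of *znfx-1* −0.52 to −0.47. For *meg-3* it was 1.30 to 1.74 and for *meg-4* 1.07 to 1.40. Over the 13 alternatives that test against no change, the adjusted p ranged from 1.5e-05 to 0.069 for *znfx-1*, 1.2e-09 to 0.0159 for *glh-1*, 2.8e-09 to 0.0749 for *meg-3* and 3.1e-09 to 0.184 for *meg-4*. For the other 6 genes the lowest values were 5.8e-04 to 0.0057 and the highest 0.507 to 0.970. All 6 were under 0.1 with total counts, *pgl-1* (9.1e-04) and *deps-1* (0.021) also without *xf58*, and *glh-2* (0.0862) without *xf60*. The shares of all tested loci under 0.1 were not counted with a library left out. Correlations of same-numbered deviations lay between −0.03 and 0.03. Each mutant replicate number is a different allele, so these correlations cannot show whether the samples were paired. With the replicate number as a block, 2 of the 10 were called up and 0 down, and 1693 up and 1723 down of all loci, with no call changed among the 10. The sequence shared between paralogs was planned for description with and without mismatches and was not run. Depth limits single libraries most at *meg-3* and *glh-2*, which had the lowest counts.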
